A study of Homo sapiens with 8 samples.

Results

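ASCL2 and 9 other genes that mark stem and progenitor cells of the intestine (LGR5, LGR4, SMOC2, EPHB2, EPHB3, PROM1, CD44, SOX9 and MSI1) were followed across SW480 and DLD-1 cells with and without knockdown of NAT10. The 10 genes were taken by name from the 17309 genes of the count table, with the counts of all transcripts of a gene summed. The set was chosen by the log2 fold change of ASCL2 after knockdown, which is among the larger increases in both cell lines, so the values of these genes in each knockdown contrast are given as a description and without a test. Tests are given for differences between the cell lines and, for the genes other than ASCL2, for the difference of the knockdown effects. All 10 genes were in the table, and 8 of them were among the 13619 genes that passed a filter on low counts, whereas PROM1 and SMOC2 did not.

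SW480 and DLD-1 are established lines from human colorectal adenocarcinomas. NAT10, an acetyltransferase that places N4-acetylcytidine on RNA, was targeted by a short hairpin RNA delivered with a lentivirus (shNAT10), and control cells received a control hairpin (shControl). The 4 groups were SW480 shControl, SW480 shNAT10, DLD-1 shControl and DLD-1 shNAT10, with 2 libraries described as biological replicates in each. All 8 libraries thus came from cultures given a lentiviral hairpin. The study designed a pair of hairpins against NAT10, and the labels do not say which was sequenced, nor whether a line is a clone or a pool. Their targets are printed here because they define the perturbation, in capitals within the flanking NAT10 transcript (GENCODE release 29, GRCh38, plus strand, ENST00000257829.7).
shNAT10-1: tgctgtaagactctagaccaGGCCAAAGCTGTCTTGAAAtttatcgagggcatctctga
shNAT10-2: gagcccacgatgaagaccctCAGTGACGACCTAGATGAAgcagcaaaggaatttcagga
Each 19-base target lies in coding sequence across an exon junction, with shNAT10-1 on the last base of exon 8 (position 34118503 of chromosome 11) and on exon 9 (chr11:34122459-34122476), and shNAT10-2 on exon 26 (chr11:34141805-34141817) and exon 27 (chr11:34142275-34142280).

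Crypts of the intestine are renewed by stem cells at their base, which are kept by Wnt signals and by R-spondins, the ligands of LGR4 and LGR5 that raise the number of Wnt receptors on the cell surface. ASCL2 is a basic helix-loop-helix transcription factor that is itself switched on by Wnt signalling and acts with TCF4 (gene TCF7L2) and β-catenin in the crypt base. Many genes of this program, including LGR5, EPHB2, CD44 and SOX9, are known Wnt targets and are often raised in colorectal cancers, where the pathway is usually active through loss of APC.

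Libraries held between 15147805 and 17271336 estimated counts, so 3 counts corresponded to between 0.176 and 0.197 CPM, the count of a gene scaled to the size of its library by the trimmed mean of M values (TMM). The first principal component separated the cell lines and held 95.6% of the variance. SW480 shNAT10 replicate 1 stood apart on the second component, which held 1.12%. Replicates differed by more than counting noise in all 4 groups (chi-square per degree of freedom of 3.21 to 9.35, the highest in SW480 shNAT10). NAT10 itself measured 122 ± 0.106 CPM in SW480 with shControl against 25.7 ± 3.06 CPM with shNAT10, and in DLD-1 121 ± 0.404 against 56.7 ± 3.25 CPM (mean ± SD, n = 2 libraries each), so less NAT10 mRNA was left in SW480. Epithelial markers (KRT8, KRT18, EPCAM and others) had 8 of 9 listed genes in the table. Their sum lay between 3169 and 3928 CPM in SW480 and between 7481 and 8074 CPM in DLD-1. KRT8 and KRT18 were the largest terms (means of 1604 and 1185 CPM in SW480 shControl, and 3616 and 2239 CPM in DLD-1 shControl). Between the lines in shControl, 6 of the 8 were lower and 2 higher in SW480 (adjusted p under 0.05, edgeR). The 2 higher ones, named after their values were seen, were VIL1 and LGALS4 (log2 fold change of SW480 over DLD-1 1.42 and 1.05). The part of these markers in the differences between the lines was not tested. Of 12 listed markers of blood, vessel, connective tissue and glial cells, 10 were in the table, none was at 0 in every library, and their sum stayed between 5.58 and 10.5 CPM. In bulk RNA, a change in the number of cells that express a gene and a change in RNA per cell cannot be told apart.

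Most of these genes differed in level between the cell lines, and the plot of CPM by library shows this spacing. In the shControl libraries, ASCL2, LGR5, EPHB2, EPHB3 and SOX9 were higher in DLD-1, CD44 and MSI1 were higher in SW480, and LGR4 was near equal. By edgeR's quasi-likelihood test, with p adjusted over all 13619 tested genes, 7 of the 8 tested genes differed between the lines in shControl cells, with 2 higher and 5 lower in SW480. Over all tested genes, 38.1% were higher and 35.6% lower in SW480, so a difference between these lines is common. In the shNAT10 libraries the same 7 genes differed, again 2 higher and 5 lower in SW480, where 38.2% of all genes were higher and 36.3% lower. The median log2 fold change (SW480 over DLD-1) of the 8 genes was −1.25 in shControl and −1.16 in shNAT10 cells, beside 0.011 and 0.014 over all tested genes.

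**Figure D1:**
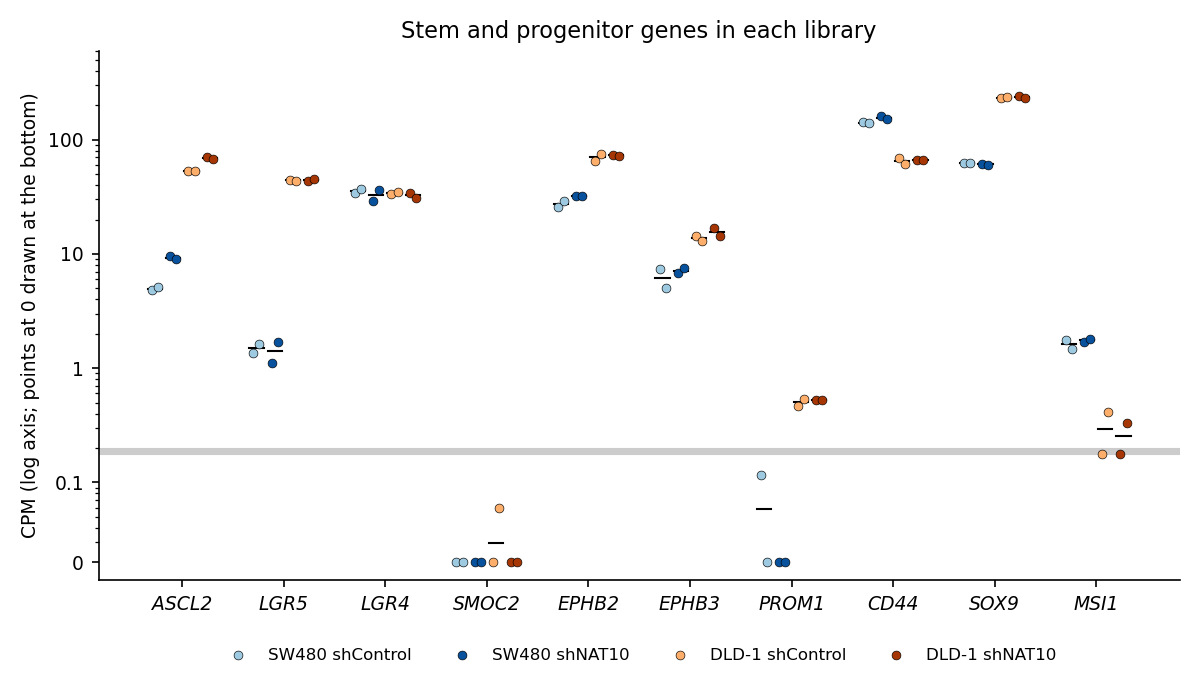
CPM (log axis) of the 10 genes in each of the 8 libraries; black lines are means of 2 libraries, the grey band is the level of 3 counts, and points at 0 are drawn at the bottom. ASCL2 steps up in all 4 groups from 4.98 to 68.9 CPM, LGR5 stands near 1.5 CPM in SW480 and 44 CPM in DLD-1, and all SMOC2 points and the PROM1 points of SW480 lie under the band.

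ASCL2 (Entrez gene 430, chr11:2268498-2270588, GRCh38) lies in the imprinted 11p15 region between the insulin and KCNQ1 genes and is represented in the table by a single transcript of 2 exons. Its counts were 82 and 88 in SW480 shControl against 162 and 153 in its shNAT10 libraries, and 900 and 890 in DLD-1 shControl against 1189 and 1033 in its shNAT10 libraries. On the CPM scale this was 4.81 and 5.15 in SW480 shControl against 9.53 and 8.95 in its shNAT10 libraries, and 52.9 and 52.7 in DLD-1 shControl against 70.0 and 67.8 in its shNAT10 libraries. The 4 groups were fully separated from each other, in the order SW480 shControl, SW480 shNAT10, DLD-1 shControl and DLD-1 shNAT10. The level was 10.6-fold higher in DLD-1 than in SW480 with shControl (log2 fold change of SW480 over DLD-1 −3.40, standard error 0.0973, adjusted p = 3.5e-13, edgeR) and 7.46-fold higher with shNAT10 (−2.90, standard error 0.087, adjusted p = 5.6e-13, edgeR). With NAT10 knockdown, ASCL2 was 1.85-fold higher in SW480 (log2 fold change 0.89, standard error 0.119) and 1.31-fold higher in DLD-1 (0.39, standard error 0.0714). These placed ASCL2 at rank 111 of the 13619 tested genes by log2 fold change in SW480 and at rank 532 in DLD-1, values that led to its choice and carry no test here. The knockdown value in SW480 exceeded that in DLD-1 by 0.51 (standard error 0.14) on the log2 scale. Leaving out each library in turn gave knockdown values of 0.84 to 0.94 for SW480, and of 0.36 to 0.41 for DLD-1. The level in SW480 shNAT10 cells was still 5.71-fold under that in DLD-1 shControl cells.

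**Figure D2:**
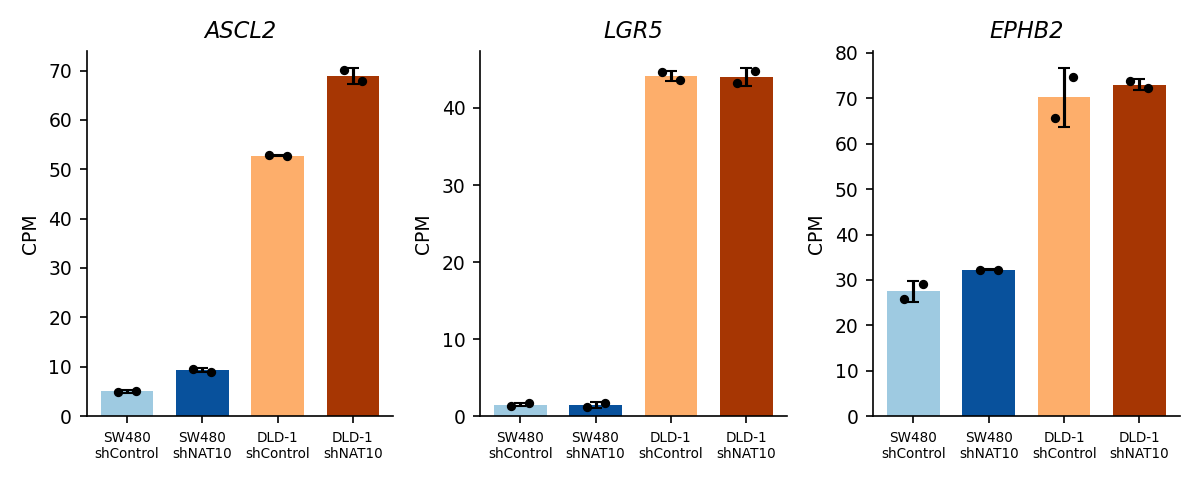
CPM (linear axis) of ASCL2, LGR5 and EPHB2; bars are means of 2 libraries, error bars the SD and dots the libraries. ASCL2 goes from 4.98 to 9.24 CPM in SW480 and from 52.8 to 68.9 CPM in DLD-1 with shNAT10, while LGR5 differs between the lines (1.49 and 44.2 CPM in shControl) and its shNAT10 and shControl libraries overlap.

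LGR5 and LGR4 are both receptors for R-spondins, LGR5 being restricted to stem cells at the crypt base and LGR4 being expressed more widely. LGR5 (Entrez 8549, chr12:71439129-71586310) had 23 and 28 counts in SW480 shControl against 19 and 29 in its shNAT10 libraries, and 760 and 738 in DLD-1 shControl against 734 and 683 in its shNAT10 libraries. Every DLD-1 library lay far above every SW480 library, and within each line the shNAT10 and shControl libraries overlapped. In this model this was the widest spacing among the tested members, 29.4-fold in shControl (log2 fold change −4.88, standard error 0.145, adjusted p = 5.4e-13, edgeR) and 31.1-fold in shNAT10 (−4.96, standard error 0.147, adjusted p = 5.1e-13, edgeR). Because the SW480 counts are low, the ratio of summed counts was also given its counting interval, which was 22.4 to 39.9 in shControl and 23.4 to 42.6 in shNAT10 (95%, exact, counting error only). With limma on log2(FPKM + 1), a scale that understates the change of low genes, the log2 fold change was −3.07 in shControl and −3.18 in shNAT10. The latter used only replicate 1 of SW480 shNAT10, since replicate 2 had no FPKM value for LGR5. With knockdown the log2 fold change of LGR5 was −0.085 in SW480 (standard error 0.26) and −0.0046 in DLD-1 (standard error 0.0907), so the shNAT10 libraries that held more ASCL2 mRNA held LGR5 levels on both sides of their controls.

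LGR4 (Entrez 55366, chr11:27365961-27472790) did not follow LGR5. Its CPM was 34.4 and 36.8 in SW480 shControl against 29.1 and 36.2 in its shNAT10 libraries, and 33.4 and 34.7 in DLD-1 shControl against 34.3 and 30.7 in its shNAT10 libraries. All 4 groups overlapped with their neighbours in the order of levels. The log2 fold change of SW480 over DLD-1 was 0.065 in shControl (standard error 0.102, adjusted p = 0.58, edgeR) and 0.003 in shNAT10 (standard error 0.103, adjusted p = 0.98, edgeR), and the sign of the latter turned under other settings. LGR4 was thus the only one of the 8 tested genes without a call between the lines in this model.

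EPHB2 and EPHB3 are receptor tyrosine kinases that position cells along the crypt by repulsion from ephrin-B ligands, with the highest levels at the crypt base. EPHB2 (Entrez 2048, chr1:22710838-22921500) measured 25.9 and 29.2 CPM in SW480 shControl against 32.3 and 32.2 in its shNAT10 libraries, and 65.7 and 74.8 in DLD-1 shControl against 73.9 and 72.2 in its shNAT10 libraries. The lines were separate under either hairpin, with DLD-1 higher by 2.55-fold in shControl (log2 fold change −1.35, standard error 0.0875, adjusted p = 3.3e-09, edgeR) and by 2.27-fold in shNAT10 (−1.18, standard error 0.0862, adjusted p = 1.3e-08, edgeR). Both SW480 shNAT10 libraries lay above both SW480 shControl libraries (log2 fold change 0.23, standard error 0.0917), whereas in DLD-1 the groups overlapped (0.057, standard error 0.0814).

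EPHB3 (Entrez 2049, chr3:184561785-184582408) was lower throughout, at 7.39 and 5.04 CPM in SW480 shControl against 6.82 and 7.49 in its shNAT10 libraries, and 14.4 and 13.0 in DLD-1 shControl against 16.9 and 14.4 in its shNAT10 libraries. DLD-1 exceeded SW480 by 2.201-fold in shControl (log2 fold change −1.14, standard error 0.161, adjusted p = 1.6e-05, edgeR) and by 2.19-fold in shNAT10 (−1.13, standard error 0.156, adjusted p = 1.2e-05, edgeR). The knockdown values were 0.20 in SW480 (standard error 0.177) and 0.20 in DLD-1 (standard error 0.142) on the log2 scale. The SW480 groups overlapped, and without SW480 shControl replicate 2, its lowest library, that value became −0.044, and without replicate 1 it became 0.50, while the DLD-1 groups stood apart by a narrow margin (14.44 CPM in the lower shNAT10 library and 14.39 CPM in the higher shControl library).

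The window from 250 bases before to 50 after the start site was read for the 6 members held in the promoter table (LGR4, SMOC2, EPHB2, EPHB3, PROM1 and CD44, with 10 start sites in all, RefSeq, GRCh38.p14) and searched on both strands for a pair of motifs, the E-box CAGCTG, the core that achaete-scute factors such as ASCL2 are known to prefer, and the TCF/LEF core CTTTGAT or CTTTGAA. The E-box was present in 17.9% of 35116 such windows, and among these members in EPHB3 only. The EPHB3 window is printed for this, with the E-box, which begins 144 bases before the start site, in capitals (chr3:184561535-184561834, plus strand).
EPHB3: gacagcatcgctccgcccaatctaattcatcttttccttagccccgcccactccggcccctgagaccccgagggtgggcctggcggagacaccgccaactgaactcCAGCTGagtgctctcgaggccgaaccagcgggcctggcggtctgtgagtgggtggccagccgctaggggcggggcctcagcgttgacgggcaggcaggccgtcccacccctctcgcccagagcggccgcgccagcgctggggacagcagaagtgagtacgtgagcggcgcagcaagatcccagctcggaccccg
The TCF/LEF core was present in 6.86% of all windows and, among these members, at 1 of the 4 start sites of PROM1 (chr4:16076069-16076368, minus strand), where it begins 179 bases before the start site and stands in capitals.
PROM1: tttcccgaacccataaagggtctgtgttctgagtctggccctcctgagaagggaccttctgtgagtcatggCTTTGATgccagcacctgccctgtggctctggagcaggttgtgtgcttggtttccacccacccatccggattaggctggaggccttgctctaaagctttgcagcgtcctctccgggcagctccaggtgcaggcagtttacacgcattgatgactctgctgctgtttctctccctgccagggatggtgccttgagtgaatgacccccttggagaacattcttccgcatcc
A match of letters is a description of the window and shows no binding.

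SOX9, an HMG-box transcription factor of the lower crypt and of Paneth cells, had a higher level per length than ASCL2 in both lines. SOX9 (Entrez 6662, chr17:72121020-72126416) measured 62.7 and 62.9 CPM in SW480 shControl against 61.0 and 60.5 in its shNAT10 libraries, and 230 and 236 in DLD-1 shControl against 240 and 232 in its shNAT10 libraries. DLD-1 was higher by 3.72-fold in shControl (log2 fold change −1.89, standard error 0.0642, adjusted p = 2.1e-12, edgeR) and by 3.89-fold in shNAT10 (−1.96, standard error 0.0644, adjusted p = 1.5e-12, edgeR). The SW480 shNAT10 libraries lay just under the shControl libraries (log2 fold change −0.048, standard error 0.066), and the DLD-1 groups overlapped (0.017, standard error 0.0601). With shNAT10, SOX9 was at 0.968 times its control level in SW480 and 1.012 times in DLD-1.

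CD44, a receptor for hyaluronan, and MSI1, an RNA-binding protein that represses translation of the Notch inhibitor NUMB, ran the other way between the lines. CD44 (Entrez 960, chr11:35139171-35232402) measured 142 and 140 CPM in SW480 shControl against 160 and 151 in its shNAT10 libraries, and 69.5 and 61.4 in DLD-1 shControl against 66.6 and 65.9 in its shNAT10 libraries. It was 2.15-fold higher in SW480 in shControl (log2 fold change 1.11, standard error 0.0745, adjusted p = 5.2e-09, edgeR) and 2.35-fold higher in shNAT10 (1.23, standard error 0.0746, adjusted p = 1.6e-09, edgeR). With knockdown, both SW480 shNAT10 libraries lay above the shControl libraries (0.14, standard error 0.0716), and the DLD-1 groups overlapped (0.018, standard error 0.0765). MSI1 (Entrez 4440, chr12:120339662-120369164) had 30 and 25 counts in SW480 shControl against 29 and 31 in its shNAT10 libraries, and 3 and 7 in DLD-1 shControl against 3 and 5 in its shNAT10 libraries. No DLD-1 library reached the lowest SW480 library. Its fitted log2 fold change between the lines was 2.42 in shControl (standard error 0.428, adjusted p = 0.00013, edgeR) and 2.79 in shNAT10 (standard error 0.444, adjusted p = 4.9e-05, edgeR), and the ratio of summed counts was 5.46 (95% counting interval 2.76 to 12.02) and 7.09 (3.37 to 17.2). The knockdown values of MSI1 were 0.13 in SW480 (standard error 0.294) and −0.24 in DLD-1 (standard error 0.654) on the log2 scale, and its groups overlapped within each line.

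**Figure D3:**
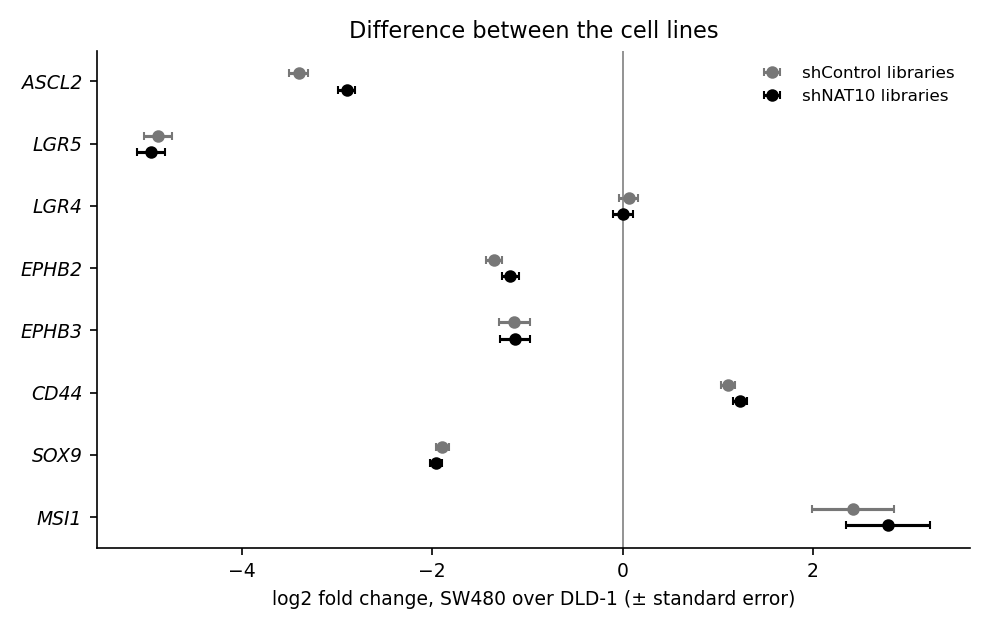
Log2 fold change of SW480 over DLD-1 for the 8 tested genes, in shControl (grey) and shNAT10 libraries (black), with standard errors from the edgeR model. LGR5 lies near −4.9, ASCL2 at −3.40 and −2.90, LGR4 near 0, and CD44 and MSI1 on the positive side.

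The remaining members were at or near the limit of detection. PROM1 (Entrez 8842, chr4:15968228-16084023), the membrane protein CD133, had 2 and 0 counts in SW480 shControl against 0 and 0 in its shNAT10 libraries, and 8 and 9 in DLD-1 shControl against 9 and 8 in its shNAT10 libraries. All 4 DLD-1 libraries lay above all 4 SW480 libraries, with a ratio of 8.56 in shControl (17 counts against 2, 95% counting interval 2.03 to 76.4) and at least 5.999-fold higher in shNAT10 (17 counts against a limit of 3 over the group). SMOC2 (Entrez 64094, chr6:168441184-168667992), a secreted matrix protein that marks crypt-base cells, had 1 count in DLD-1 shControl replicate 2 and 0 in the other 7 libraries, so no difference in it was detectable at this depth.

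Levels can be set between genes only per length, for which the deposited FPKM values (read numbers scaled to transcript length and sequencing depth) of a gene's transcripts were summed. In DLD-1 shControl cells the order of mean FPKM was SOX9 with 63.6, ASCL2 with 33.3, CD44 with 16.99, EPHB2 with 16.4, LGR5 with 10.3, LGR4 with 6.84 and EPHB3 with 3.45, followed by PROM1 with 0.135, MSI1 with 0.115 and SMOC2 with 0.01. CD44 and EPHB2 overlapped in that order, as did PROM1 and MSI1. In SW480 shControl cells the order was CD44 with 47.2, SOX9 with 17.3, LGR4 with 7.19, EPHB2 with 6.36, ASCL2 with 3.19, EPHB3 with 1.58, MSI1 with 0.8 and LGR5 with 0.35, with PROM1 at 0.02 and SMOC2 listed at 0. ASCL2 therefore ranked below SOX9 alone in DLD-1, but in SW480 also below CD44, LGR4 and EPHB2, while LGR4 held nearly the same FPKM in both lines.

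CD44 is the member with the most transcripts, 19 in the table, and the division of its counts among them differed between the lines. These transcripts were singled out after their values were seen, so no test is given, and RSEM divides reads of 50 bases among transcripts that share most exons. The transcript NM_001001391.2, with 9 exons and without the variable exons of CD44, took 41.7% ± 0.87 of the CD44 counts in SW480 shControl and 41.9% ± 2.02 in SW480 shNAT10, but in DLD-1 20.9% ± 1.34 with shControl and 16.6% ± 7.47 with shNAT10 (SD, n = 2). The transcript NM_001001390.2, with 12 exons, took 11.4% ± 0.00707 and 7.90% ± 0.138 in SW480 shControl and shNAT10, and 26.6% ± 0.509 and 29.7% ± 2.98 in DLD-1. Its lowest DLD-1 library (26.3%) lay above its highest SW480 library (11.4%), and for NM_001001391.2 the highest DLD-1 library (21.9%) lay below the lowest SW480 library (40.5%). The predicted transcript XM_011520488.2 followed the 12-exon form, with 1.07% to 3.33% in SW480 and 13.3% to 20.2% in DLD-1. NM_001202557.2, with 9 exons and a shorter coding sequence, held 11.6% to 14.0% in SW480 and 1.47% to 6.34% in DLD-1. The lower CD44 total of DLD-1 cells thus came with a larger share of the 12-exon form.

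**Figure D4:**
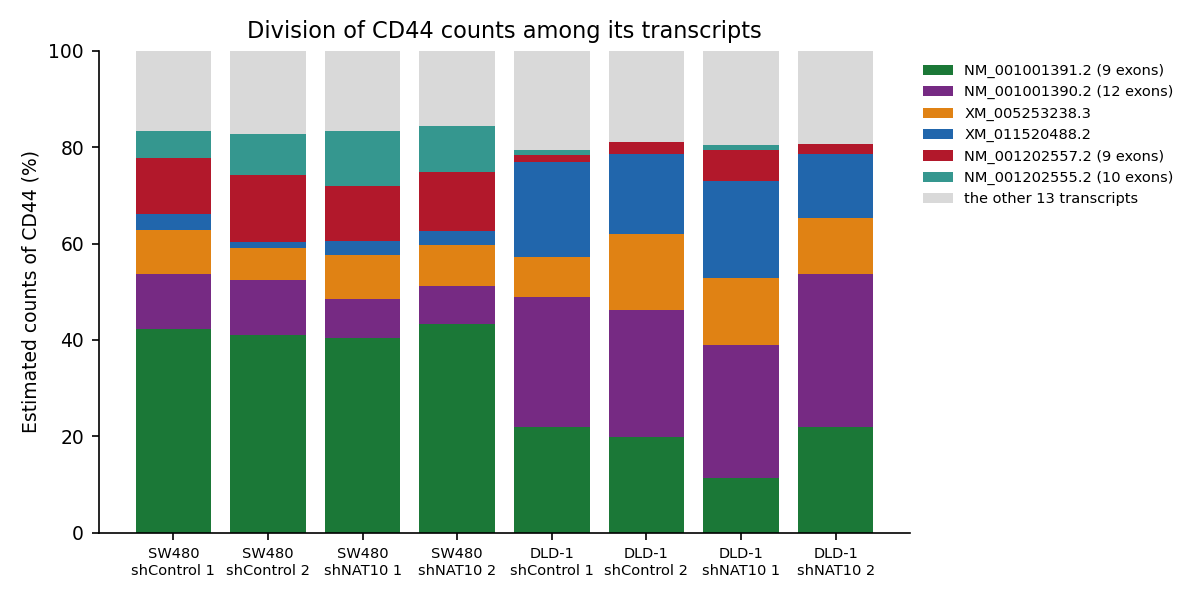
Share (%) of the estimated CD44 counts assigned to each transcript in each library; the 6 transcripts that held over 10% in any library are coloured and the other 13 are grey. The 9-exon transcript NM_001001391.2 holds 40.5% to 43.3% in SW480 and 11.3% to 21.9% in DLD-1, and the 12-exon transcript NM_001001390.2 holds 7.80% to 11.4% and 26.3% to 31.8%.

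ASCL2 had the largest log2 fold change with knockdown among the 8 tested members in each line, as its choice implies. In SW480 the libraries did not overlap for 4 of the 8 genes, higher in ASCL2, EPHB2 and CD44 and lower in SOX9, where 47.9% of all tested genes did not overlap. In DLD-1 they did not overlap for 2 of the 8 genes, ASCL2 and EPHB3, both higher, where 36.0% of all tested genes did not overlap. Since the knockdown contrast chose the set, nothing is read from these counts. Over the 7 tested genes other than ASCL2 the log2 fold changes had a median of 0.13 in SW480 (range −0.13 to 0.23), and one of 0.017 in DLD-1 (range −0.24 to 0.20), beside −0.0095 and 0.0 over all tested genes.

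**Figure D5:**
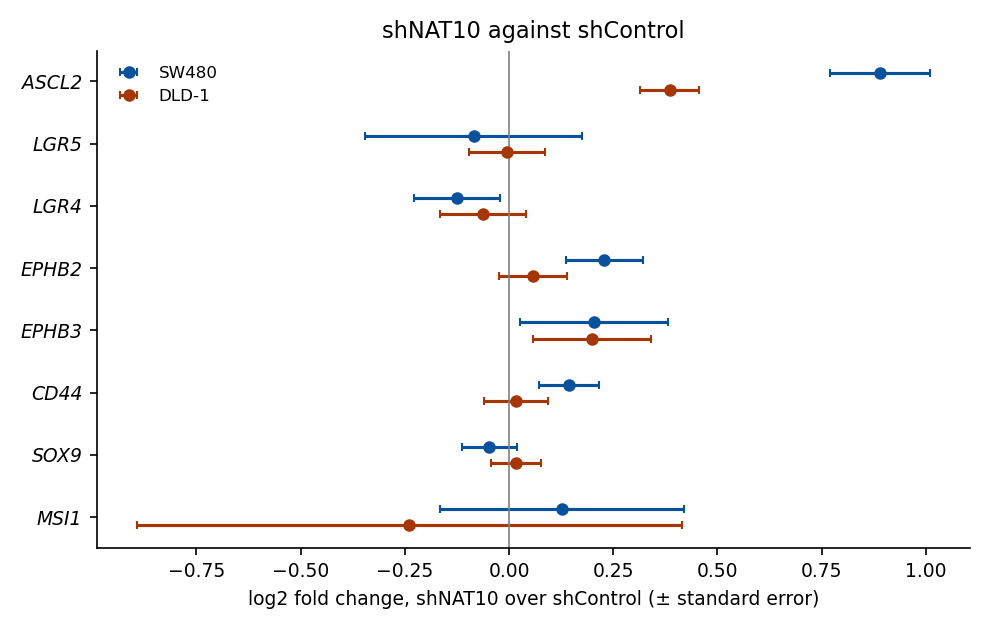
Log2 fold change of shNAT10 over shControl for the 8 tested genes in SW480 (blue) and DLD-1 (brown), with standard errors from the edgeR model. ASCL2 lies at 0.89 and 0.39, and the other genes lie between −0.24 and 0.23, with standard errors that reach 0.294 for MSI1 in SW480 and 0.654 for MSI1 in DLD-1.

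Whether these 7 genes responded differently in the lines was tested as the difference of the knockdown effects. By edgeR, 0 of the 7 passed an adjusted p under 0.05, 0 passed an unadjusted p under 0.05, and DESeq2 also called 0. No limma count is given, since LGR5, CD44 and SOX9 lacked the FPKM of SW480 shNAT10 replicate 2. Over all tested genes 0.0% passed as higher and 0.00734% as lower in SW480. The difference was 0.17 for EPHB2 (standard error 0.123, adjusted p = 0.66, edgeR), 0.13 for CD44 (standard error 0.105, adjusted p = 0.70, edgeR) and 0.37 for MSI1 (standard error 0.719, adjusted p = 0.89, edgeR) on the log2 scale. The standard error of 0.719 leaves room for a large difference in MSI1. Those of LGR5 (−0.081, standard error 0.275), EPHB3 (0.0049, standard error 0.222) and LGR4 (−0.062, standard error 0.145) leave room for a moderate one. A small one remains possible in SOX9 (−0.065, standard error 0.0892, adjusted p = 0.83, edgeR).

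The genes whose log2 CPM followed ASCL2 most closely over the 8 libraries were HYKK, EWSR1, GYS1 and SRRT (Pearson r = 0.998 each) and SLC29A1 (r = 0.997). Because the libraries form a cluster for each line, 3379 other tested genes had an r above 0.9, and the value is a description of this shared spacing. Among the members the same measure was 0.99 for EPHB2, 0.97 for SOX9, 0.97 for LGR5, 0.96 for EPHB3, −0.25 for LGR4, −0.95 for CD44 and −0.95 for MSI1. With the mean of each line subtracted, which leaves the knockdown and replicate differences, the closest genes were GANAB (r = 0.996), OGFR (0.990), RAC1 (0.986), AAMP (0.983) and NUDC (0.983), and 200 genes were above 0.9. GANAB, the catalytic subunit of glucosidase II, measured 289 and 306 CPM in SW480 shControl against 499 and 508 in its shNAT10 libraries, and 379 and 375 in DLD-1 shControl against 484 and 458 in its shNAT10 libraries. Its knockdown values of 0.76 in SW480 and 0.32 in DLD-1 stood next to the 0.89 and 0.39 of ASCL2. On this scale the members measured 0.81 for EPHB2, 0.70 for CD44, 0.48 for EPHB3, 0.038 for MSI1, −0.24 for LGR5, −0.51 for LGR4 and −0.52 for SOX9.

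Genes around the members were taken from lists of their pathways and tested in the same model. Counts of listed genes at an unadjusted p under 0.05 are a description only, since the share of all tested genes at that limit was not taken. Among 8 listed helix-loop-helix partners and ID inhibitors, 6 were tested, and TCF3, which encodes the E proteins that achaete-scute factors pair with, rose in SW480 with knockdown. TCF3 measured 79.6 and 74.8 CPM in SW480 shControl against 107 and 98.3 in its shNAT10 libraries (log2 fold change 0.41, standard error 0.0795, adjusted p = 0.021, edgeR), and 119 and 133 CPM in DLD-1 shControl against 152 and 143 in its shNAT10 libraries (0.23, standard error 0.0772, adjusted p = 0.66, edgeR). TCF12, another E protein gene, named after its values were seen, lay in the other direction in SW480, at 94.7 and 80.7 CPM in the shControl and shNAT10 means (−0.23, adjusted p = 0.14, edgeR). ID2, an inhibitor that binds E proteins and is the most abundant gene of this list, measured 212 and 204 CPM in SW480 and 89.5 and 90.2 CPM in DLD-1 (shControl and shNAT10 means), without a call. The inhibitors ID1 and ID3, named after their values were seen, lay higher in SW480 with knockdown (0.28 and 0.44), also without a call. Their values in DLD-1 were 0.060 and 0.14. In this list 4 genes in SW480 and 2 in DLD-1 had an unadjusted p under 0.05 (edgeR). Among the chromosome neighbours of ASCL2 at 11p15, 0 of 11 tested genes were called in either line by edgeR, while 2 in SW480 and 1 in DLD-1 had an unadjusted p under 0.05. CD81, the most abundant of these neighbours, had log2 fold changes of 0.13 in SW480 and 0.010 in DLD-1, and CARS1 had −0.062 and −0.26. The pair under an unadjusted p of 0.05 in SW480, named after their values were seen, were MRPL23 with 0.29 and PHLDA2 with 0.24, both higher with knockdown, and the median of the 11 genes was 0.11 in SW480 and −0.036 in DLD-1, beside −0.0095 and 0.0 over all tested genes.

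Around LGR4 and LGR5, 9 of 13 listed genes for R-spondins, their ubiquitin ligases and Wnt receptors were tested. With knockdown 0 were called in either line, and 1 in SW480 and 0 in DLD-1 had an unadjusted p under 0.05. RNF43, the ligase that removes Wnt receptors and that R-spondins restrain, measured 90.8 and 91.8 CPM in SW480 and 182 and 186 CPM in DLD-1 (shControl and shNAT10 means), lower in SW480 shControl than in DLD-1 shControl (adjusted p = 2.1e-09, edgeR). The co-receptor LRP5 had knockdown values of 0.014 in SW480 and 0.14 in DLD-1. Of 17 Wnt transcription and feedback genes, all tested, CCND1 (cyclin D1) fell in SW480, from 888 and 924 to 718 and 730 CPM (log2 fold change −0.32, standard error 0.0671, adjusted p = 0.030, edgeR), and measured 486 and 536 CPM in DLD-1 shControl against 524 and 547 CPM in its shNAT10 libraries. CTNNB1, which encodes β-catenin, had values of −0.067 (standard error 0.0615) and 0.084 (standard error 0.0621). In this list 5 genes in SW480 and 2 in DLD-1 had an unadjusted p under 0.05 (edgeR). Besides CCND1 these were, named after their values were seen, MYC, TCF7L1 and NOTUM, higher in SW480 (0.18, 0.31 and 0.26), and TCF7L2, lower (−0.21). In DLD-1 they were MYC (0.17) and BCL9 (0.26), both higher. The list median was −0.044 in SW480 and 0.065 in DLD-1.

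Of 18 other stem cell markers, 15 were tested and 2 fell in SW480 with knockdown. BMI1, a Polycomb protein linked to a reserve stem cell state, went from 130 and 138 to 104 and 112 CPM (log2 fold change −0.31, standard error 0.07, adjusted p = 0.043, edgeR), and CDK6, a cell cycle kinase, from 65.4 and 67.2 to 45.8 and 55.5 CPM (−0.39, standard error 0.0918, adjusted p = 0.049, edgeR). In DLD-1 their values were −0.16 and −0.19. Of the other markers, named after their values were seen, MEX3A and CDCA7 lay higher in SW480 with knockdown (0.27 and 0.19), without a call. SORL1 and DCLK1 lay lower (−0.33 and −0.40), also without a call. The list median was −0.18 in SW480 and −0.016 in DLD-1. Of 13 Eph receptors and ephrins beside EPHB2 and EPHB3, 12 were tested and EPHA2 fell in SW480, from 175 and 170 to 108 and 109 CPM (log2 fold change −0.66, standard error 0.0739, adjusted p = 0.00064, edgeR). In DLD-1 EPHA2 measured 113 and 111 CPM in shControl and 107 and 92.1 in shNAT10 (−0.17, standard error 0.0751, adjusted p = 0.83, edgeR). EFNB1, a ligand of EPHB2 and EPHB3, was 176 and 191 CPM in SW480 but 8.58 and 8.22 CPM in DLD-1 (shControl and shNAT10 means, log2 fold change in shControl 4.36, adjusted p = 1.3e-14, edgeR). EFNB2, another ligand of these receptors, named after its values were seen, lay on the other side, with 4.04 and 4.16 CPM in SW480 and 49.7 and 49.0 CPM in DLD-1 (log2 fold change in shControl −3.62, adjusted p = 1.4e-12, edgeR).

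These 5 calls, TCF3, CCND1, BMI1, CDK6 and EPHA2, were all the calls in SW480 by adjusted p among the 103 listed genes tested. A gene in more than 1 list was counted once. Over all tested genes 0.778% were higher and 0.903% lower. In DLD-1, 0 were called by edgeR, DESeq2 or limma, where 0.0% of all genes were higher and 0.0147% lower. At the limits the study used (fold change above 1.2 or below 0.83 and unadjusted p under 0.05), 17 of the 103 listed genes were called in SW480. This stood beside 4.1% of all tested genes higher and 4.98% lower. In DLD-1, 3 of the 103 were called, beside 1.34% higher and 1.34% lower. EPHA2 was called in SW480 under every alternative run, whereas the other 4 lost their call without either SW480 shControl library, without SW480 shNAT10 replicate 1 and without either DLD-1 shNAT10 library, when 1 listed gene was left, and 3 were left without either DLD-1 shControl library. Without SW480 shNAT10 replicate 2 there were 21.

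Differentiation genes gave no call with knockdown. Their counts at an unadjusted p under 0.05 again stand without a share over all tested genes, and nothing is read from them. Of 12 Notch genes, all tested, 0 were called in either line, and 4 in SW480 and 1 in DLD-1 had an unadjusted p under 0.05. NOTCH2 had values of −0.28 and 0.14, and NUMB, the target of MSI1, had −0.024 and 0.010. Of 10 secretory lineage genes 4 were tested, with 0 at an unadjusted p under 0.05. AGR2, a goblet cell disulphide isomerase, measured 203 and 192 CPM in DLD-1 (shControl and shNAT10 means) against a single library with any count in SW480, and the goblet peptide TFF3 8.49 and 8.69 CPM against 0. Between the lines in shControl, 1 of the 4 tested secretory genes was higher and 3 were lower in SW480. The higher one, named after its values were seen, was GFI1 (7.76 against 0.856 CPM, adjusted p = 9.9e-09, edgeR). Of 14 absorptive lineage genes 7 were tested, 0 were called, and 1 in each line had an unadjusted p under 0.05. CDX2, the intestinal homeobox factor, was 40.6 and 46.7 CPM in SW480 and 157 and 171 CPM in DLD-1, and HNF4A 25.7 and 25.3 against 37.9 and 39.9 CPM (shControl and shNAT10 means). Between the lines in shControl, 2 of the 7 were higher and 3 lower in SW480, and the higher ones, named after their values were seen, were VIL1 (14.5 against 5.42 CPM, adjusted p = 3.2e-06, edgeR) and ALPI (1.70 CPM against 0). The epithelial markers KRT8 and KRT18 had knockdown values of 0.19 and 0.16 in SW480 and 0.055 and 0.050 in DLD-1. CDH1, EPCAM and VIL1, named after their values were seen, had −0.28, −0.098 and −0.13 in SW480. None of the 8 tested epithelial markers was called by edgeR, and 4 in SW480 and 0 in DLD-1 had an unadjusted p under 0.05, with a list median of 0.17 and 0.056. Of the markers of other cell types 4 were tested and 0 called, with 1 in SW480 and 0 in DLD-1 at an unadjusted p under 0.05, ACTA2 being 2.78 and 4.57 CPM in SW480 and PDGFRB 2.43 and 2.49 CPM. Whether these markers have a part in the ASCL2 difference was not tested.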

How the data were processed

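RNA-seq was made from poly(A) RNA in 8 libraries, with 2 in each of 4 groups taken from the labels. The deposited table holds RSEM estimated counts for 78953 RefSeq transcripts, and the submitters' processing notes name HISAT2 2.0.4, Bowtie2 2.2.5, RSEM 1.2.12 and hg38. The authors also deposited FPKM values per library, used for levels between genes and as an alternative; for SW480 shNAT10 replicate 2 they stop early, leaving 14655 transcripts (18.6%) without a value, LGR5, PROM1, CD44, SOX9 and MSI1 included. Whether strand was used in counting is not given in the sources used here.

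Counts were summed per gene, rounded, filtered (filterByExpr, minimum count 10, minimum total 15), scaled by TMM, and a model of the 4 groups was fitted in edgeR 4.0.16 (R 4.3.3); the biological coefficient of variation was 0.0585. Adjusted p is Benjamini-Hochberg over all 13619 tested genes. A standard error was obtained from the fold change (log2, absolute) over the root of its F statistic. CPM correlations used log2 CPM with a prior count of 2. RefSeq symbols covered 99.3% of gene identifiers. Alternatives were DESeq2 1.42.0, upper-quartile normalization, no filter, a replicate term, limma 3.58.1 on log2(FPKM + 1), each line alone, the study's limits and leaving out each library. Simulated counts in which 200 genes were changed served to test the model. The members and gene lists were chosen with earlier results of these data known. The genes named are the members, NAT10, called genes of each list (up to 4), the 2 most abundant of lists with fewer than 2 calls, and the 5 genes most like ASCL2 by each measure. Confidence intervals and limits of 3 counts cover counting error only. Other steps used Python 3.11.15 (scipy 1.17.1, pandas 2.3.3, numpy 2.4.6, matplotlib 3.10.9).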

Additional observations from a re-analysis of the deposited data

Results flagged for a closer look

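The fall of NAT10 mRNA differed between the lines. The knockdown effect in SW480 minus that in DLD-1 was −1.16 on the log2 scale (standard error 0.118, adjusted p = 0.0015, edgeR), with −2.25 in SW480 and −1.09 in DLD-1 and all shNAT10 libraries below all shControl libraries of their line. The part of this difference in the larger ASCL2 value of SW480 was not tested. None of the 7 tested members other than ASCL2 differed between the lines by the same test.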

How the results depend on the processing

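With 2 libraries per group, counts of knockdown calls moved by more than 1.5 times with the model. The number of members called between the lines was 7 of 8 tested under either hairpin, and 8 of 10 without the filter. With DESeq2 it was 7 of 10 in shControl and 8 of 10 in shNAT10 libraries. With limma on log2(FPKM + 1) it was 6 of 7 in shControl libraries. In shNAT10 libraries no limma count is given, since LGR5, CD44 and SOX9 lacked the FPKM of SW480 shNAT10 replicate 2. The log2 fold changes of single members between the lines kept their call and direction in 202 of their comparisons with the main value. There were 4 reversals, all of them LGR4 in shNAT10 libraries, which is near 0. Its value was −0.0020 with a replicate block and −0.0146 with limma on log2(FPKM + 1), and it lay between −0.166 and 0.157 when a library was left out. Members called in the DLD-1 knockdown went from 0 to 1 with the replicate block, with each cell line alone and at the study's limits. The count also moved when either SW480 shNAT10 library was left out. At the study's limits the member was ASCL2, whose value chose the set, beside 1.34% of all tested genes higher and 1.34% lower. The choice of the set bears on this count, and nothing is read from it. Listed genes called in the SW480 knockdown went from 5 to 1 without the filter, to 1 with limma on log2(FPKM + 1), to 1 with each cell line alone, to 17 with the replicate block and to 17 at the study's limits, and lay between 1 and 21 with a library left out. Listed genes called in the DLD-1 knockdown went from 0 to 1 with the replicate block and to 3 at the study's limits. The cause of these moves was not tested. Of the knockdown values of single members, 17 moved by more than the spread between replicates and 204 did not. Replicate numbers were not taken as pairs of libraries. The correlation of replicate 1 deviations between groups ran from −0.0053 to 0.128, a low value over all genes that cannot exclude a pairing. The block is given only as an alternative. PROM1 and SMOC2 are limited by depth.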
